A study of Drosophila melanogaster with 6 samples.

Results

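Glycolysis splits glucose into pyruvate in the cytosol, pyruvate enters the mitochondrion and is turned into acetyl-CoA, and the citrate cycle oxidises that acetyl group and feeds electrons to the respiratory chain. Gluconeogenesis runs the pathway backwards through enzymes of its own at the irreversible steps. In the Drosophila midgut, the digestive and absorptive part of the intestine, these enzymes work in cells that also take up dietary sugar and make lipid from it. The genes described here are the enzyme and carrier genes of these 4 steps: 13 of glycolysis, 5 of pyruvate entry, 3 of gluconeogenesis and 16 of the citrate cycle, 37 in all. They were listed by enzyme name and pathway step. Of these, 34 were matched to FlyBase identifiers by their current symbols, among 15682 identifiers in the count tables. Pyk (pyruvate kinase), muc (the E2 subunit of pyruvate dehydrogenase) and Fum1 (fumarase) were not analysed here.

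RNA-seq was made from dissected midguts of virgin flies of the white-eyed laboratory strain w1118, 15 days old and kept at 29 °C. Each sex had 3 libraries, and each library pooled 30 midguts, with no other treatment or genotype named. Each library held between 23825935 and 38406746 counts assigned to genes, so that 3 counts amounted to between 0.0781 and 0.126 CPM (counts scaled to the library total), a limit set by counting error alone. The comparison asks how far the midgut of females and that of males differ in the level of each gene. Nothing in the labels says that replicates came from separate cultures, so the spread that the p-values measure is that between pools and may be partly technical.

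Levels are CPM scaled by TMM, a factor that corrects for differences in library composition. Fold changes are given as log2 of female over male, each with its standard error (SE), from the quasi-likelihood test of edgeR over all 8941 genes that passed a filter on low counts. A gene was called at a Benjamini-Hochberg adjusted p under 0.05. All 34 matched genes passed the filter. Since this SE was derived from the test itself, it adds nothing to the p-value printed with it. In whole midguts, fewer cells of a type and less RNA per cell cannot be told apart.

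The midgut identity of the libraries was checked on marker lists. The enterocyte list (Myo31DF, Myo61F, nub, betaTry and alphaTry) summed to 43445 to 57097 CPM in females and 38910 to 47020 CPM in males, and none of its 5 genes was called. The 9 matched muscle genes, of which none was called, summed to 591 to 1438 CPM in females and 809 to 1612 CPM in males, so muscle RNA was present in every library and its range overlapped between the sexes. The 6 enteroendocrine genes summed to 307 to 353 CPM in females and 414 to 464 CPM in males, without overlap. Tk and AstA, 2 of the 6, were called higher in males, beside 5.53% of all genes. Each lost its call without any single library other than male replicate 3. The part of this list in the results below was not tested. The 7 fat body genes summed to 293, 61.8 and 54.8 CPM in female replicates 1 to 3 and to 9.15, 29.3 and 17.7 CPM in males. This list holds the yolk protein genes Yp1, Yp2 and Yp3, so its sum does not measure fat body apart from sex. Fbp1 was at 0 in every library. Of the 5 tested genes of this list none was called, and 3 had an unadjusted p under 0.05 toward females, beside 9.57% of all genes. Their fold changes lay toward females for 4 and toward males for 1. Of the flight muscle list, Act88F alone passed the filter and was called higher in females, at 7.92 CPM against 3.06 CPM. Genes of the accessory gland, a male reproductive organ, summed to 22.0 CPM in male replicate 3 and to at most 0.0829 CPM in the other 5 libraries. The testis list summed to 0 in all females and to 0.0963, 0.579 and 4.95 CPM in male replicates 1 to 3.

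Some glycolysis genes were higher in males and none passed toward females. Of the 12 tested, 4 were called higher in males, namely Hex-A, Pgi, Pgk and Ldh, and 0 were called higher in females, where edgeR called 5.53% of all genes higher in males and 3.87% higher in females. At an unadjusted p under 0.05, 10 of the 12 lay toward males and 0 toward females (11.4% and 9.57% of all genes, 21% in either direction), and DESeq2 and limma-voom also called 0 higher in females. All 12 fold changes were negative, as were 52.8% of those of all genes. The median of the 12 was -0.49 on the log2 scale, against -0.02 over all genes.

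The hexokinase step, which phosphorylates glucose on entry, is covered by a pair of genes. Hex-A (FBgn0001186, on the X) stood at 135, 126 and 104 CPM in female replicates 1 to 3 and at 359, 267 and 195 CPM in male replicates 1 to 3. The male libraries all lay above the female ones, by 2.25-fold on the means (log2 -1.17 ± 0.21, edgeR adjusted p = 0.00553). Hex-C (FBgn0001187), its paralog, stood at 14.8, 17.9 and 12.3 CPM in females and at 15.1, 22.1 and 22.7 CPM in males. The sexes overlapped, and the log2 fold change of -0.41 had a 95% interval of -0.85 to 0.03 (edgeR adjusted p = 0.276).

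Per length of exon, Hex-A was at 29.4 CPM per kb in females and 66.2 in males, against 10.1 and 13.4 CPM per kb for Hex-C. Hex-A had 9.11, 7.01 and 8.46 counts for each count of Hex-C in the female libraries and 23.8, 12.1 and 8.57 in the male ones. The log2 ratio of the pair differed between the sexes by -0.73 (3.03 ± 0.19 for females and 3.76 ± 0.75 for males, SD, n = 3 each). An exact two-sided permutation test gave p = 0.2, or 0.333 adjusted over the 5 gene pairs examined. Male replicate 3 fell within the range of the females, so a difference in response between the hexokinase genes was not shown at 3 libraries against 3, where the smallest possible p is 0.1.

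Pgi (FBgn0003074), phosphoglucose isomerase, converts glucose 6-phosphate to fructose 6-phosphate. Its level was 161, 208 and 182 CPM in females and 786, 419 and 337 CPM in males. This was the largest fold change among the glycolysis genes, a log2 of -1.49 ± 0.29 (edgeR adjusted p = 0.0112), or 2.80-fold. It was spread widely over the male libraries: without male replicate 1 the log2 fold change was -1.02 and still called (edgeR adjusted p = 0.00449), whereas leaving out female replicate 3 ended the call (edgeR adjusted p = 0.0563).

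Pfk (FBgn0003071), phosphofructokinase, makes the committed step of glycolysis. It stood at 44.1, 46.2 and 50.4 CPM in females and at 79.9, 58.7 and 52.9 CPM in males. The sexes did not overlap, but the gap between the highest female and the lowest male library was small, and Pfk did not pass (log2 -0.44 ± 0.16, edgeR adjusted p = 0.134). It passed only when male replicate 3 was left out (edgeR adjusted p = 0.0443). At 10.7 CPM per kb in females and 14.6 in males it was, with Hex-C, among the lowest of the glycolysis genes per length.

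At the aldolase and triose phosphate steps neither gene passed. Ald1 (FBgn0000064), aldolase, stood at 693, 684 and 606 CPM in females and 1133, 936 and 838 CPM in males, with no overlap and an edgeR adjusted p of 0.059 (log2 -0.55 ± 0.16). Ald1 passed when libraries were scaled by their totals alone, with a filter of 5 CPM, without male replicate 3 and in DESeq2 (adjusted p = 0.0308, 0.0468, 0.0244 and 0.00542). Tpi, triose phosphate isomerase, overlapped between the sexes and did not pass (log2 -0.53 ± 0.19, edgeR adjusted p = 0.112).

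The glyceraldehyde 3-phosphate dehydrogenase step also has a pair of genes. Gapdh1 (FBgn0001091) stood at 233, 278 and 255 CPM in females and 298, 327 and 363 CPM in males, and Gapdh2 (FBgn0001092, on the X) at 577, 698 and 613 CPM in females and 809, 660 and 688 CPM in males. Gapdh1 did not overlap between the sexes and Gapdh2 did, and neither passed (edgeR adjusted p = 0.161 and 0.567). They are close paralogs, and reads shared between them could shift either value. Per length, Gapdh2 had the highest mean level of all 34 genes, at 436 CPM per kb in females and 498 in males. The log2 ratio of Gapdh2 to Gapdh1 averaged 1.30 ± 0.03 for females and 1.13 ± 0.28 for males (SD, n = 3 each), a difference of 0.17 by which the sexes were not told apart (exact two-sided permutation p = 0.4).

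Pgk (FBgn0250906), phosphoglycerate kinase, makes the first ATP of the pathway. It stood at 143, 171 and 145 CPM in females and 242, 203 and 251 CPM in males. The sexes did not overlap, and the log2 fold change was -0.60 ± 0.14 (edgeR adjusted p = 0.023). Leaving out female replicate 1 or 3 or male replicate 1 ended the call (edgeR adjusted p = 0.13, 0.106 and 0.0569). Pgk shares 65 bases of exon with Cwc25, a gene of the opposite strand. Whether the counting used strand is not given in the sources used here. Cwc25 had 13.9 CPM in females and 13.6 in males, far below Pgk.

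The next enzymes, phosphoglycerate mutase and enolase, were higher in every male than in every female library but did not pass. Pglym78 (FBgn0014869), the mutase, stood at 131, 146 and 136 CPM in females and 224, 157 and 182 CPM in males (log2 -0.45 ± 0.15, edgeR adjusted p = 0.103). Eno (FBgn0000579), enolase, stood at 435, 504 and 493 CPM in females and 685, 617 and 648 CPM in males (log2 -0.45 ± 0.14, edgeR adjusted p = 0.0793). Eno was called in DESeq2 (adjusted p = 0.00898) and with scaling by library totals alone (edgeR adjusted p = 0.0382). It shares 362 bases of exon with Rrp40 on the opposite strand, which had 8.10 CPM in females and 5.44 in males.

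Ldh (FBgn0001258), lactate dehydrogenase, reduces pyruvate to lactate and so regenerates NAD+ for glycolysis. It stood at 63.4, 61.0 and 53.0 CPM in females and at 149, 106 and 93.2 CPM in males. All male libraries were above all female ones, by 1.96-fold on the means (log2 -0.97 ± 0.17, edgeR adjusted p = 0.0053). In every alternative that was run, the leave-one-out fits included, Ldh and Hex-A stayed called, with edgeR adjusted p of at most 0.0363 for each.

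**Figure D1:**
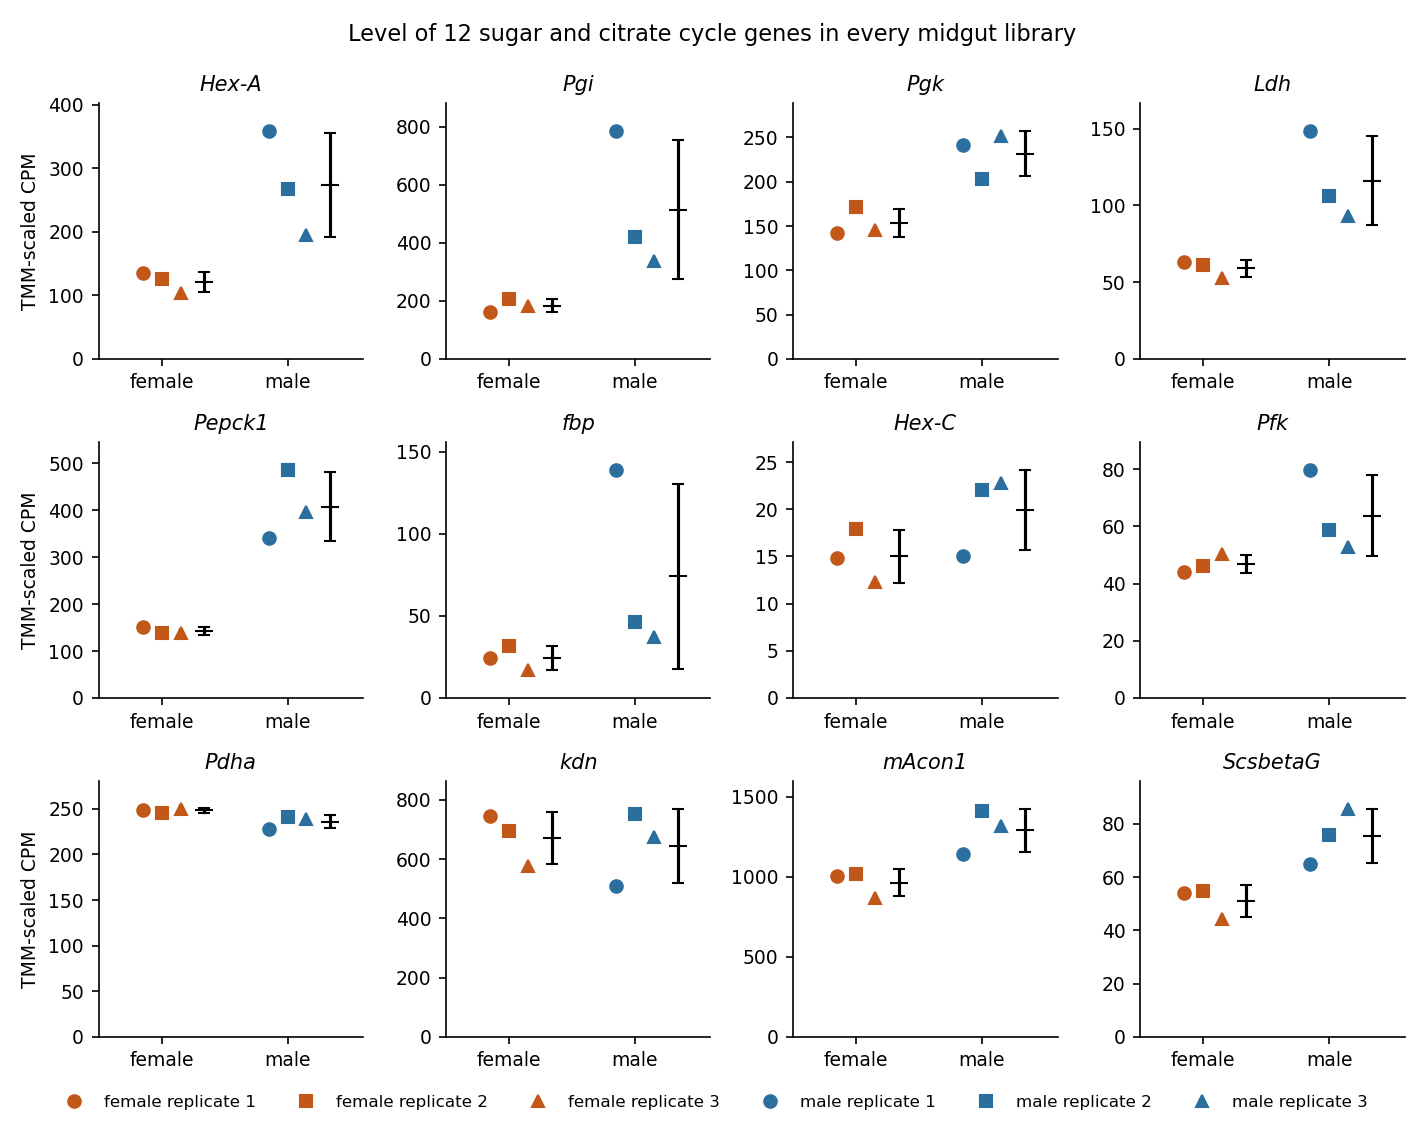
Level in TMM-scaled CPM (vertical axis, from 0) of 12 genes in the 3 female and 3 male libraries. Points are libraries, with 1 marker shape per replicate number, and the bar beside them is the mean ± SD (n = 3). Among the male libraries, replicate 1 stood highest for Hex-A, Pgi, Ldh, fbp and Pfk. It stood lowest for kdn, mAcon1, Hex-C, Pepck1, Pdha and ScsbetaG.

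Libraries of the same sex were not alike in these genes. Among the females, replicate 2 had the highest level for 8 of the 12 glycolysis genes, 11 of the 15 citrate cycle genes and 22 of all 34. Its TMM factor of 0.919, against 1.01 in both other female libraries, raised its scaled levels. With library totals alone its citrate cycle sum was 4465 CPM, below the 4688 CPM of replicate 1. Its glycolysis sum stayed highest, at 2864 CPM against 2803 and 2807 CPM. Among the males, replicate 1 had the highest level for 9 of the 12 glycolysis genes and for 1 of the 15 citrate cycle genes. In the citrate cycle, male replicate 3 was highest for 8 of 15 and male replicate 2 for 6 of 15. The spread was larger in males than in females for 30 of the 34 genes, with a median coefficient of variation of 15.0% in males and 9.57% in females. Spread was not compared over all genes, so this is not shown to be particular to the 34. For fbp it reached 76.3% in males.

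No gene of pyruvate entry passed, and PCB lay farthest toward males. Of the 4 tested, 0 were called in either direction by edgeR or limma-voom, and DESeq2 called PCB (adjusted p = 0.0248). Of all genes, edgeR called 9.39% and DESeq2 13.5% in either direction. At an unadjusted p under 0.05, 1 lay toward males and 0 toward females, beside 11.4% and 9.57% of all genes. Pdha (FBgn0028325, on the X), the E1 alpha subunit of pyruvate dehydrogenase, stood at 249, 246 and 250 CPM in females and 228, 241 and 239 CPM in males. Its female libraries lay just above its male ones, a difference of 0.07 on the log2 scale with a 95% interval of -0.20 to 0.35 (edgeR adjusted p = 0.832). Pdhb, the E1 beta subunit, had 0.13 with an interval of -0.19 to 0.44, and its libraries overlapped. Per length of exon the E1 subunits stood close together, at 115 CPM per kb for Pdha and 93.9 for Pdhb in females and at 110 and 86.0 in males. With longest transcripts as lengths their order reversed, at 122 and 132 CPM per kb in females and 116 and 121 in males.

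Mpc1, a subunit of the mitochondrial pyruvate carrier, had a log2 fold change of -0.18 with an interval of -0.45 to 0.09. PCB (FBgn0027580), pyruvate carboxylase, makes oxaloacetate from pyruvate and serves both the citrate cycle and gluconeogenesis. It stood at 158, 147 and 92.9 CPM in females and 248, 214 and 172 CPM in males, with no overlap (log2 -0.67 ± 0.21, edgeR adjusted p = 0.075). PCB was called with scaling by library totals alone and without male replicate 3 (edgeR adjusted p = 0.0464 and 0.0415).

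Gluconeogenesis held the gene with the smallest p of all 34. Pepck1 (FBgn0003067), a phosphoenolpyruvate carboxykinase that turns oxaloacetate into phosphoenolpyruvate, stood at 152, 139 and 138 CPM in females and at 341, 487 and 396 CPM in males. The lowest male library was far above the highest female one, and the means differed 2.85-fold (log2 -1.51 ± 0.16, edgeR adjusted p = 0.000251). It stayed called in every alternative that was run, with an edgeR adjusted p of at most 0.00375 when any library was left out. In the current annotation its whole exon sequence is also assigned to CG45087 on the same strand, which was not analysed here.

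Pepck2 (FBgn0034356), its paralog, stood at 10.4, 10.3 and 12.5 CPM in females and 15.0, 13.5 and 11.3 CPM in males. The sexes overlapped, with a log2 fold change of -0.26 and a 95% interval of -0.65 to 0.14 (edgeR adjusted p = 0.489). There were 14.7, 13.4 and 11 counts of Pepck1 for each count of Pepck2 in females and 22.8, 36.0 and 35.1 in males. The log2 ratio differed by -1.25 (3.69 ± 0.21 against 4.94 ± 0.37, SD, n = 3 each) and the sexes did not overlap, at an exact two-sided permutation p of 0.1, the smallest possible, and 0.25 adjusted over 5 pairs.

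fbp (FBgn0032820), fructose 1,6-bisphosphatase, reverses the phosphofructokinase step. It stood at 24.4, 31.9 and 17.1 CPM in females and at 139, 46.0 and 37 CPM in males. The male libraries lay above the female ones, but male replicate 1 was far above the other males, and fbp did not pass (log2 -1.60 ± 0.60, edgeR adjusted p = 0.215). Without male replicate 1 its log2 fold change was -0.74 (edgeR adjusted p = 0.0939). Of the 3 gluconeogenesis genes, 1 was thus called higher in males and 0 in females, beside 5.53% and 3.87% of all genes.

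**Figure D2:**
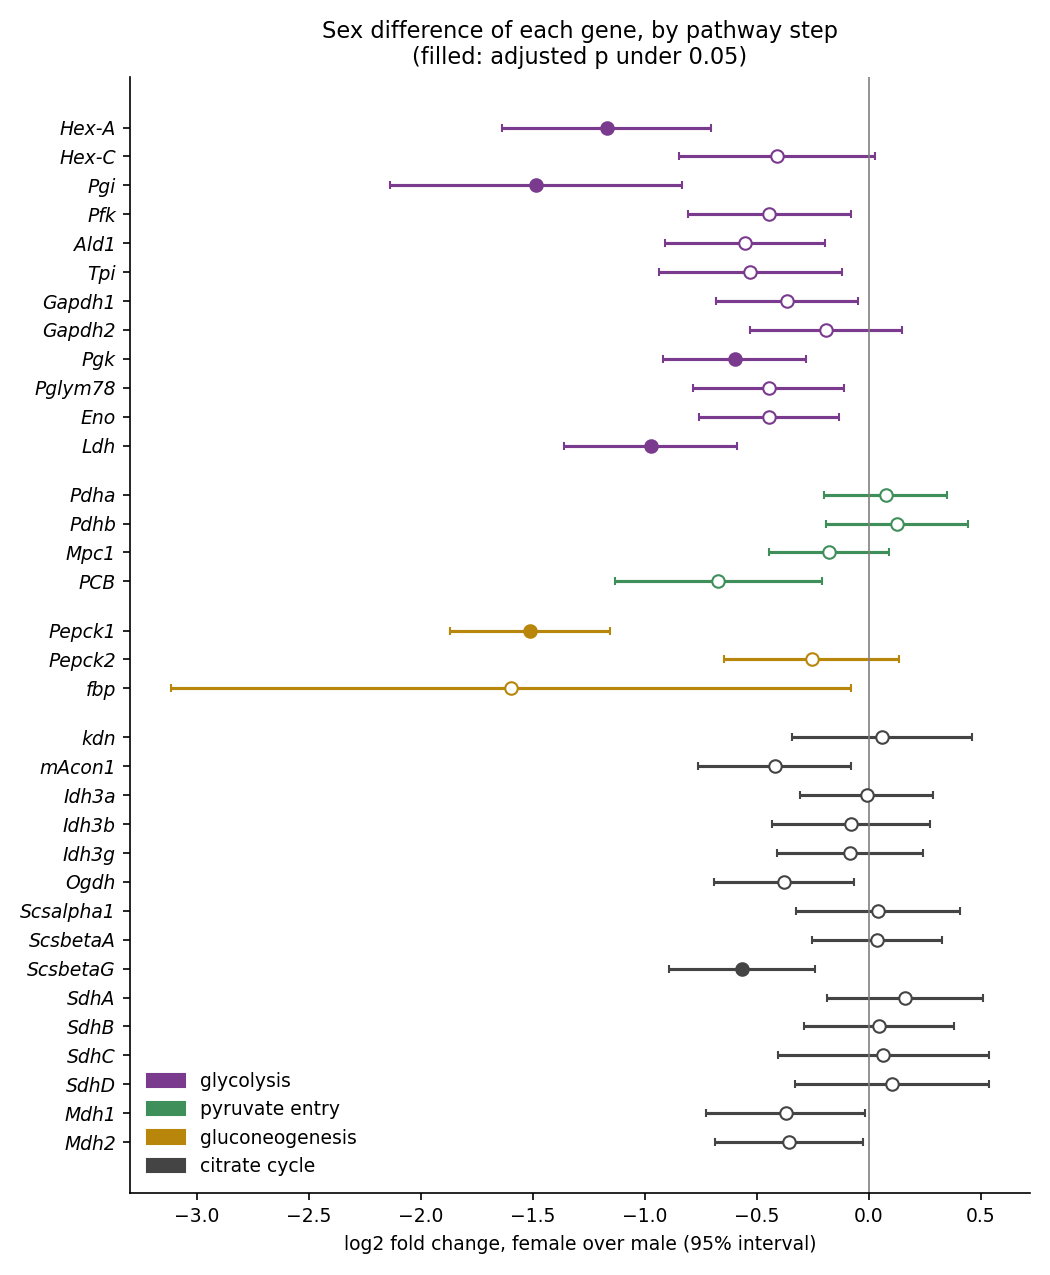
Log2 fold change, female over male, of the 34 genes (horizontal axis) with 95% intervals from the edgeR fit, grouped and coloured by pathway step. Filled points passed an adjusted p under 0.05: Hex-A, Pgi, Pgk and Ldh of glycolysis, Pepck1 of gluconeogenesis and ScsbetaG of the citrate cycle, all toward males, while the intervals of 10 of the 15 citrate cycle genes include 0.

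In the citrate cycle, most fold changes lay near 0. Of 15 tested, 1 was called higher in males, ScsbetaG, and 0 higher in females, a share near that of all genes (5.53% higher in males and 3.87% in females). At an unadjusted p under 0.05 there were 5 toward males and 0 toward females, beside 11.4% and 9.57% of all genes. DESeq2 called 3 higher in males, adding mAcon1 and Ogdh, where it called 7.35% of all genes. The median log2 fold change was -0.01, beside -0.02 over all genes. Of the 15, 8 fold changes were negative and 7 positive, and they ranged from -0.57 to 0.16. With scaling by library totals alone, 11 of the 15 were negative, and without male replicate 1, 14 were.

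The entry of acetyl-CoA into the cycle is made by citrate synthase, encoded by kdn (FBgn0261955, on the X). It stood at 747, 693 and 576 CPM in females and at 508, 752 and 676 CPM in males. These ranges overlapped widely, with a log2 difference of 0.06 and a 95% interval of -0.34 to 0.46 (edgeR adjusted p = 0.917). mAcon1 (FBgn0010100), mitochondrial aconitase, stood at 1004, 1020 and 870 CPM in females and 1145, 1410 and 1319 CPM in males. The aconitase libraries did not overlap but the gene did not pass (log2 -0.42 ± 0.15, edgeR adjusted p = 0.132). DESeq2 called it (adjusted p = 0.0393).

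The NAD-dependent isocitrate dehydrogenase is made of subunits encoded by Idh3a, Idh3b and Idh3g. Their log2 fold changes were -0.01, -0.08 and -0.09, with 95% intervals that together ran from -0.43 to 0.29, and the libraries of the sexes overlapped for all 3. Per length, Idh3a stood at 139 CPM per kb in both sexes, Idh3b at 79.0 in females and 83.5 in males, and Idh3g at 76.0 and 80.6. Idh3g shares 158 bases of exon with RpL27 on the opposite strand, a ribosomal protein gene with means of 1245 CPM (females) and 701 CPM (males) and a call toward females (edgeR adjusted p = 0.00489). Ogdh (FBgn0010352), the E1 subunit of 2-oxoglutarate dehydrogenase, stood at 321, 297 and 325 CPM in females and 444, 419 and 364 CPM in males. It did not overlap between the sexes and did not pass (log2 -0.38 ± 0.14, edgeR adjusted p = 0.137), though DESeq2 called it (adjusted p = 0.0414).

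Succinyl-CoA ligase yields a nucleoside triphosphate, ATP or GTP depending on which beta subunit joins the alpha subunit. ScsbetaG (FBgn0029118), the GTP-forming beta subunit, stood at 53.9, 54.8 and 44.2 CPM in females and 65.1, 75.9 and 85.6 CPM in males. The sexes did not overlap, and the log2 fold change was -0.57 ± 0.15 (edgeR adjusted p = 0.0345). The call held without male replicate 1 and was lost without any other single library (edgeR adjusted p = 0.0617 to 0.145). ScsbetaA, the ATP-forming beta subunit, had a log2 fold change of 0.04 with an interval of -0.25 to 0.33, and the alpha subunit gene Scsalpha1 had 0.04 with an interval of -0.33 to 0.41.

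For each count of ScsbetaG there were 4.09, 4.25 and 4.99 counts of ScsbetaA in females and 3.05, 3.11 and 2.62 in males. The log2 ratio averaged 2.15 ± 0.15 for females and 1.54 ± 0.14 for males (SD, n = 3 each), a difference of 0.60 with no overlap, at an exact two-sided permutation p of 0.1, the smallest possible, and 0.25 adjusted over 5 pairs. This ratio needs no scaling between libraries. Per length, ScsbetaA stood at 98.6 CPM per kb in females and 96.2 in males, and ScsbetaG at 31.9 and 47.2.

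Succinate dehydrogenase belongs to the citrate cycle and to the respiratory chain, where it is complex II. The log2 fold changes of its subunit genes SdhA, SdhB, SdhC and SdhD were 0.16, 0.05, 0.06 and 0.10, with 95% intervals that together ran from -0.41 to 0.54. All 4 overlapped between the sexes. SdhA stood at 279, 305 and 263 CPM in females and 207, 258 and 292 CPM in males. On these TMM-scaled levels, female replicate 2 and male replicate 3 were the highest of their sex for SdhB, SdhC and SdhD as well, as they were for 11 and 8 of the 15 citrate cycle genes. Per length in females, SdhC stood at 185 CPM per kb, SdhB at 129, SdhA at 103 and SdhD at 91.0.

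Malate dehydrogenase has a cytosolic form, encoded by Mdh1, and a mitochondrial form, encoded by Mdh2, which closes the cycle. Mdh2 (FBgn0262559) stood at 453, 498 and 432 CPM in females and 513, 619 and 639 CPM in males, with no overlap (log2 -0.36 ± 0.15, edgeR adjusted p = 0.197). Mdh1 overlapped between the sexes (log2 -0.37 ± 0.16, edgeR adjusted p = 0.212). The log2 ratio of Mdh1 to Mdh2 averaged -0.34 ± 0.12 for females and -0.31 ± 0.24 for males (SD, n = 3 each), and the test of that difference gave an exact two-sided permutation p of 0.9. With mAcon1 and Gapdh2, these were the genes of highest level per length, Mdh2 at 345 and 442 CPM per kb in females and males and Mdh1 at 285 and 369.

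Over all 34 genes, 6 were called higher in males and 0 in females, where edgeR called 9.39% of all genes in either direction. Libraries did not overlap between the sexes in 17 of the 34 toward males and in 1, Pdha, toward females, beside 13.8% and 12.4% of all genes tested, or 26.2% in either direction. Without female replicate 3 the number called was 3, namely Hex-A, Ldh and Pepck1. Without male replicate 3, the library with accessory gland transcripts and the highest testis sum, it was 8. DESeq2 called 11 higher in males, where it called 7.35% of all genes in that direction. The 5 genes on the X, Hex-A, Gapdh2, Pdha, kdn and Idh3a, had a median log2 of -0.01 and included 1 call, and the 29 on autosomes had -0.38 and 5 calls. Of those on the X, Pdha, kdn and Idh3a belong to pyruvate entry or the citrate cycle and Hex-A and Gapdh2 to glycolysis. These medians thus mix chromosome with step, and chromosomes were not compared within a step. Values for all X or all autosomal genes were not computed.

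Summed over each step, the difference was widest for gluconeogenesis. Its 3 genes came to 187, 181 and 167 CPM in females and 495, 546 and 444 CPM in males, and Pepck1 made up 81.3% of that sum on average. The glycolysis genes summed to 2768, 3116 and 2770 CPM in females and 5031, 3940 and 3880 CPM in males, without overlap, or 1.48-fold higher in males on the means. Citrate cycle genes summed to 4628, 4857 and 4171 CPM in females and 4606, 5421 and 5490 CPM in males, which overlapped, and pyruvate entry genes to 628 to 715 CPM in females and 716 to 765 CPM in males. The sum of glycolysis divided by that of the citrate cycle was 0.598, 0.642 and 0.664 in females and 1.09, 0.727 and 0.707 in males. That ratio was above the females in every male library, and male replicate 1 stood apart from the other males.

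**Figure D3:**
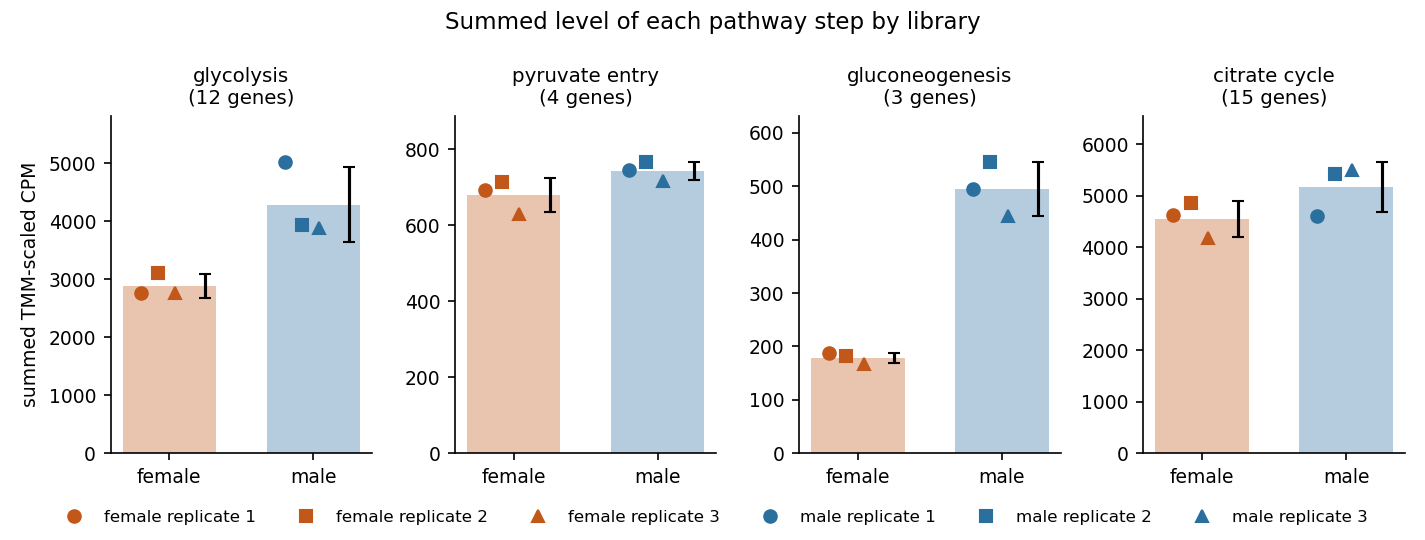
Summed TMM-scaled CPM of the genes of each pathway step (vertical axes, from 0, with a scale of their own) in the 6 libraries. Bars are means of 3 libraries with SD and points are libraries; glycolysis and gluconeogenesis separate the sexes widely, pyruvate entry only narrowly (715 against 716 CPM), and the citrate cycle overlaps.

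Neighbouring sugar pathways were read beside these genes. The pentose phosphate pathway draws on glucose 6-phosphate to make NADPH and ribose. Each of its 6 tested genes was called higher in males, where 5.53% of all genes were: Zw, Pgls, Pgd, Rpi, Rpe and Taldo, with log2 fold changes of -1.52 to -0.79 and a median of -1.14. Zw, glucose-6-phosphate dehydrogenase at the branch from glycolysis, stood at 36.6, 52.4 and 52.5 CPM in females and 201, 116 and 90.3 CPM in males (edgeR adjusted p = 0.0134). Like Pgi and Hex-A, it was highest in male replicate 1.

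Among 7 genes of the malate, aspartate and glycerol phosphate shuttles and the NADP-linked enzymes, 4 were called higher in males and 0 in females (5.53% and 3.87% of all genes). They were Men-b and Men, malic enzymes that turn malate into pyruvate, Idh, the NADP-dependent isocitrate dehydrogenase, and Got1, an aspartate aminotransferase. Idh stood at 844, 1022 and 886 CPM in females and 2215, 2512 and 1928 CPM in males (log2 -1.27 ± 0.17, edgeR adjusted p = 0.000918), and no subunit gene of the NAD-dependent enzyme was called, though the difference between these genes was not tested. Men-b had the widest gap, at 246, 278 and 203 CPM in females and 2300, 2600 and 1617 CPM in males (log2 -3.16 ± 0.22, edgeR adjusted p = 2.57e-05). Men stood at 204, 229 and 242 CPM in females and 797, 651 and 469 CPM in males (log2 -1.51 ± 0.20, edgeR adjusted p = 0.000919). Gpo1, the mitochondrial glycerol 3-phosphate dehydrogenase, lay the other way without passing, at 69.8, 68.0 and 130 CPM in females and 59.2, 45.0 and 58.0 CPM in males (log2 0.72 ± 0.25, unadjusted p = 0.0163, edgeR adjusted p = 0.114); it was picked out after its values were seen. Got1 lost its call without female replicate 1 (edgeR adjusted p = 0.0529). At an unadjusted p under 0.05, 6 of the 7 genes lay toward males and 1 toward females (11.4% and 9.57% of all genes). Gpdh1 and Got2, which were not called, were among the 6.

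Of 6 genes of glycogen and trehalose turnover, 4 were called higher in males and 0 in females, beside 5.53% and 3.87% of all genes. AGBE, the glycogen branching enzyme, changed by a log2 of -0.90 ± 0.14 (edgeR adjusted p = 0.002) and Treh, trehalase, by -0.94 ± 0.18 (edgeR adjusted p = 0.00767). UGP, which makes UDP-glucose, had -0.86 ± 0.16 and Glyp, glycogen phosphorylase, -0.59 ± 0.13 (edgeR adjusted p = 0.00747 and 0.0145). UGP and Treh lost their calls without female replicate 1 (edgeR adjusted p = 0.051 for each), and Glyp lost its call when female replicate 1 or 2 or male replicate 2 was left out (edgeR adjusted p = 0.0791, 0.0634 and 0.0622).

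The regulators of sugar metabolism moved in both directions. Of 9 tested, 1 was called higher in males and 2 in females, beside 5.53% and 3.87% of all genes. Mondo, which forms the sugar-sensing transcription factor with the Mlx protein encoded by bigmax, stood at 242, 213 and 149 CPM in females and 343, 441 and 308 CPM in males (log2 -0.86 ± 0.20, edgeR adjusted p = 0.0214). bigmax went the other way, at 39.2, 44.4 and 40.9 CPM in females and 21.8, 15.9 and 21.5 CPM in males (log2 1.07 ± 0.15, edgeR adjusted p = 0.00158). sug, a zinc finger factor that acts downstream of Mondo and Mlx, was also higher in females, at 192, 147 and 188 CPM against 69.4, 57.5 and 59.8 CPM (log2 1.5 ± 0.15, edgeR adjusted p = 0.000154).

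The partner genes thus parted in direction, with no overlap of the sexes for any of these 3 genes. Leaving out female replicate 2 or 3 or male replicate 2 ended the call of Mondo (edgeR adjusted p = 0.0562, 0.088 and 0.105). The others, cbt, ERR, Hnf4, Pdk, Pdp and Pfrx, did not pass. Pdk, the kinase that inactivates pyruvate dehydrogenase, had a log2 fold change of -0.30 ± 0.15, and Pdp, the opposing phosphatase, -0.01 ± 0.14.

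**Figure D4:**
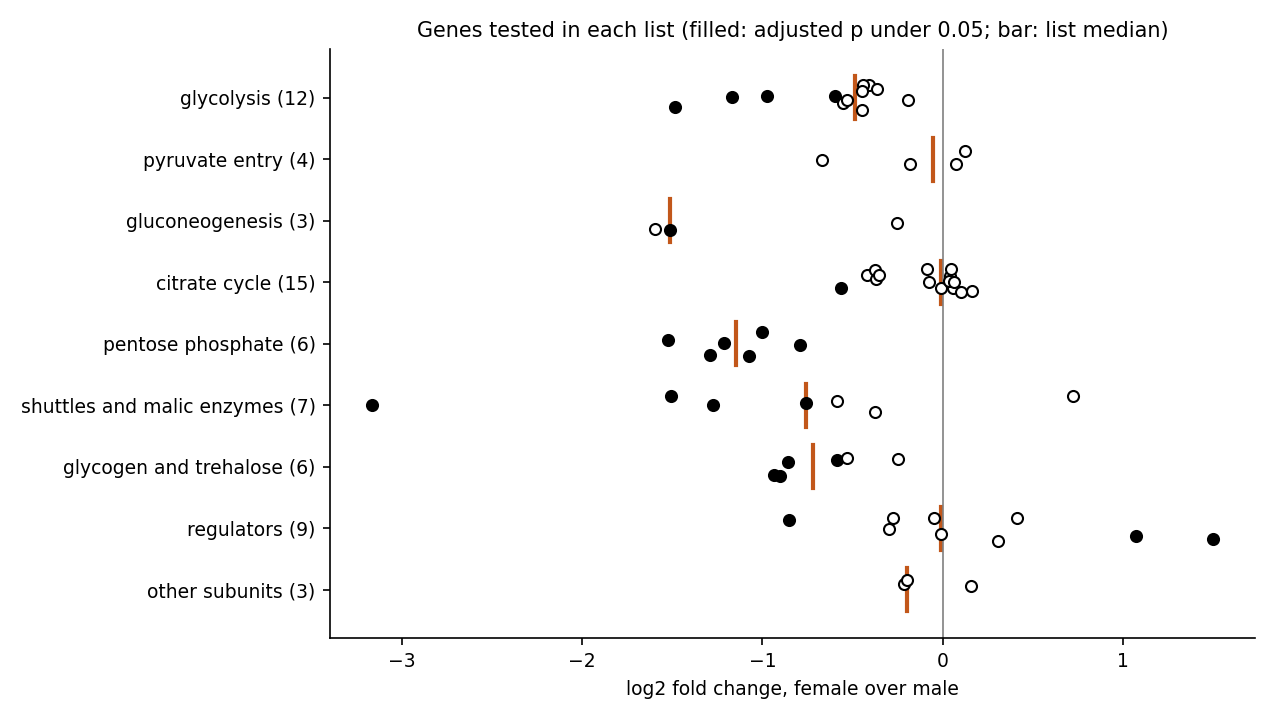
Log2 fold change, female over male, of every tested gene in 9 lists (horizontal axis), with the number of genes beside each list name. Points are genes, filled where the adjusted p was under 0.05, with vertical offsets only to separate them, and bars are list medians. All 6 pentose phosphate genes lie toward males, the citrate cycle centres at -0.01 and the regulators lie on both sides.

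Of 3 further subunit genes of these complexes, CG7430, CG5214 and CG9399, none was called by edgeR, and 0 had an unadjusted p under 0.05. The 2 with the smallest p were CG9399 (log2 -0.20 ± 0.12) and CG5214 (log2 -0.22 ± 0.14), with edgeR adjusted p of 0.388 and 0.449. The 18 paralogs of these enzymes named in the list, many of them known from testis, were at or near 0: they summed to 0.985 to 1.62 CPM in females and 1.35 to 3.86 CPM in males, and 2 of them, CG7069 and CG7024, passed the filter on low counts. Neither was called (edgeR adjusted p = 0.977 and 0.834).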

How the data were processed

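Poly(A) RNA of midguts was sequenced in 3 female and 3 male libraries. Per the labels' protocols, the strand-marking kit took in 500 ng of RNA per library, and paired reads had 100 bases. The values are the deposited counts: whole-number read counts per gene, not normalized by the authors. TopHat2 2.0.11, HTSeq and build dm3 are named in the submitters' processing notes. How the counting treated strand and multiply matching reads, and on which annotation, is not given in the sources used here.

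Identifiers were paired with symbols through a current name table. Ensembl's annotation of BDGP6 gave chromosomes, union exon lengths and overlapping exons by identifier. No coordinates are used, since the builds differ. Of the 34 genes, 12 share exon sequence with an opposite-strand gene and 2, Pepck1 and Ogdh, with a same-strand gene. Pgk, Eno and Idh3g of the 12 are described above. The others are Ald1 (338 bases), Ogdh (294), SdhB (129), SdhD (124), PCB (93), ScsbetaA (74), SdhA (38), mAcon1 (24) and Pglym78 (6). In R 4.3.3, low counts were filtered (filterByExpr, groups by sex, minimum count 10, total 15), libraries were scaled with TMM and genes were tested with the robust quasi-likelihood test of edgeR 4.0.16 (sex alone, 6 libraries, two-sided, intervals of 95%). Log ratios of paired genes used a pseudocount of 0.5. No replicate pair agreed within sampling noise (lowest chi-square per degree of freedom 31.2). The steps were tested on simulated data.

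Alternatives were RLE factors, no scaling, other filters, DESeq2 1.42.0, voom of limma 3.58.1, a block of replicate numbers, fits without each library in turn and longest transcripts as lengths. The genes and lists were chosen with earlier results of these data known, so no p is given over a list. All matched genes were named, with values in every library for those called, for 9 control points of the pathway, and for those with an unadjusted p under 0.05 whose sexes did not overlap. Of other lists, called genes were named, or the 2 of smallest p.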

Additional observations from a re-analysis of the deposited data

How the results depend on the processing

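Hex-A, Ldh and Pepck1 were called higher in males in every alternative run, and no gene of the 34 was called higher in females in any. The 34 genes gave 6 calls, with 11 in DESeq2, 9 with no scaling and 7 with a filter of 5 CPM. They gave 3 to 8 when each library was left out in turn. Glycolysis gave 4, with 6 in DESeq2, 6 with no scaling and 5 with that filter. It gave 3 with the replicate number as a block and 2 to 6 when a library was left out. The citrate cycle gave 1, with 3 in DESeq2, 0 with the replicate number as a block and 0 to 1 when a library was left out. Genes higher in females numbered 346, with 552 in DESeq2 and 164 to 419 when a library was left out. Same-numbered libraries did not deviate together (correlations of -0.10, -0.31 and -0.16, and 0 libraries matched best with their own number). With 3 libraries per sex, this check cannot decide whether same-numbered libraries were handled as pairs. With the replicate block the 34 genes gave 5 calls: ScsbetaG and Pgk were lost (edgeR adjusted p = 0.0914 and 0.0732), PCB was added (0.0261), and the listed genes Zw (0.052), Glyp (0.0558) and Tk (0.117) were lost. AstA was lost in limma-voom (0.0512). Fold changes near 0 changed sign: Idh3a was 0.0022 with RLE and with DESeq2, Scsalpha1 was -0.014, ScsbetaA -0.021 and SdhB -0.011 with no scaling, and CG7069 was 0.17 in limma-voom and 0.066 with the replicate block. When a library was left out, signs changed for kdn (-0.070 to 0.18), Idh3a (-0.050 to 0.039), Idh3b (-0.20 to 0.013), Idh3g (-0.15 to 0.0088), Scsalpha1 (-0.060 to 0.23), ScsbetaA (-0.015 to 0.090), SdhB (-0.038 to 0.17), SdhC (-0.086 to 0.35), SdhD (-0.072 to 0.31) and CG7069 (-0.50 to 0.36). The causes were not tested. Dividing by the longest transcript changed the level per length of 7 genes by more than their spread. Among them were Ald1, Eno and Pdhb, at 309, 212 and 126 CPM per kb against 214, 152 and 90.0 with union exons. It also reversed the order of Pdha and Pdhb and that of Idh3b and Idh3g. Tk and AstA each lost their call without any single library other than male replicate 3. Sequencing depth was not varied.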
